A study of Mus musculus with 12 samples.

Results

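The 10 genes described here are known for the naive state of pluripotency: *Zfp42*, *Nanog*, *Klf2*, *Klf4*, *Klf5*, *Esrrb*, *Tbx3*, *Tfcp2l1*, *Nr0b1* and *Tcl1*. They were chosen by symbol out of the 23086 symbols counted, and all 10 had enough counts to be among the 12322 genes tested. Of the 10, 9 encode transcription factors or transcriptional regulators, whereas *Tcl1* encodes a co-activator of the kinase AKT, so the genes are called naive genes below. The RNA came from embryoid bodies, clumps of mouse embryonic stem cells that start to differentiate, at 2 days. The stem cells were of the A2lox.cre type, in which doxycycline turns on a gene inserted at the X-linked *Hprt* locus. One line carried wild-type *Lhx1*, a LIM homeodomain transcription factor needed for head formation, with a FLAG tag. The other line carried a mutant FLAG-*Lhx1*, with no description of the mutation in the labels. Each line was kept without doxycycline or given it for 16 h, which gave 4 groups of 3 libraries. The untreated groups therefore carry the transgene too, and no group without a transgene or without the A2lox.cre background was analysed here. The labels do not say whether replicates came from separate cultures, so the p-values reflect the spread among these libraries alone, and that spread may be technical. Each kind of FLAG-*Lhx1* is represented under a single genotype label, so the form of LHX1 and other differences between the lines cannot be told apart in comparisons of one line with the other.

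Naive pluripotency is the state of the epiblast of the blastocyst and of stem cells held in leukaemia inhibitory factor (LIF). LIF acts through STAT3 on *Klf4* and *Tfcp2l1*, other signals of the stem cell medium act on *Nanog*, *Tbx3* and *Esrrb*, and the factors then support each other and the core factors *Pou5f1* and *Sox2*. When stem cells leave the naive state, most of these genes are switched off while *Pou5f1* stays on and formative genes such as *Fgf5*, *Pou3f1* and *Otx2* come up.

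The libraries held 4289984 to 4850393 counts each. *Lhx1* checked the labels: it had 14, 8 and 5 counts in the untreated wild-type libraries and 2 in each untreated mutant library, and it averaged 296 and 248 CPM with doxycycline. CPM are counts scaled to 1 library size after TMM adjustment. Untreated wild-type library 3 stood apart from its group with 229 CPM of *Bnip3*, a gene induced by low oxygen, against 58.5 and 63.3 CPM. Elsewhere *Bnip3* varied too, with 107 CPM in treated wild-type library 3 and 83.4 to 148 CPM in the mutant libraries. Treated wild-type library 2 stood apart with 1.45% of its counts on ribosomal *Rn45s*, against at most 0.265% elsewhere. Untreated wild-type library 3 was the lowest of its group for 7 of the 10 naive genes, and treated wild-type library 2 was the lowest for 6. Such counts were not particular to these libraries, since untreated mutant library 1 was the lowest of its group for 7 as well.

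*Zfp42* and *Nanog* responded in opposite directions in the line with wild-type FLAG-*Lhx1*, and the 250 bases before their start sites are printed because both hold a match to the same motif. The sequences are from RefSeq on GRCm38.p6 (mm10), which gave a promoter for 8 of the 10 genes, that is, for all but *Klf5* and *Tbx3*. Each runs 5′ to 3′ on the strand of its gene up to the base before the start, and capitals mark matches to the POU heptamer ATGCAAA and the SOX core CATTGT on either strand. The first lies on the minus strand at chr8:43307010-43307259 and the second on the plus strand at chr6:122707239-122707488.
Zfp42: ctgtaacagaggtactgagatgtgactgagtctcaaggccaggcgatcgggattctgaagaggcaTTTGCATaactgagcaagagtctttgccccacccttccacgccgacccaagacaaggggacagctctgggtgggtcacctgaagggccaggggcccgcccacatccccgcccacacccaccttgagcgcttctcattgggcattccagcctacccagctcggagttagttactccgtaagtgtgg
Nanog: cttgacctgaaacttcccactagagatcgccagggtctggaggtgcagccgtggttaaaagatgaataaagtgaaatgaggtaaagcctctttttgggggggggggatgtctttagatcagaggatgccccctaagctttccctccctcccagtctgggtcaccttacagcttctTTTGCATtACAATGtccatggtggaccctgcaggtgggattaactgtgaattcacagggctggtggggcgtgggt

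The POU match lay 185 to 179 bases before the start of *Zfp42* and 75 to 69 bases before the first of the 2 *Nanog* starts in RefSeq. A SOX match followed it in *Nanog* at 67 to 62 bases, separated by a single base, and *Zfp42* had no SOX match in this window. These letters occurred in the promoters of only these 2 of the 8 naive genes for ATGCAAA and of only *Nanog* for CATTGT, against 4.12% and 10.7% of all 32851 promoters of this length. CCACCC, a box bound by KLF factors, was in 6 of the 8 (*Esrrb*, *Klf2*, *Nanog* at its second start, *Nr0b1*, *Tcl1* and *Zfp42*) and in 28.1% of all promoters. TTCNNNGAA, the form bound by STAT factors, was in *Esrrb* alone of the 8 and in 7.02% of all. TATAAA was in *Nr0b1* and *Tfcp2l1* and in 12.4% of all. Neither AAGGTCA, the ESRRB half-site (4.08% of all), nor TAATTA, a palindrome that homeodomains bind (4.84% of all), occurred in any window of the 8 genes. *Nanog* and *Esrrb* had 2 starts each. A gene was counted if any of its windows matched, while the shares of all are per promoter. All motifs were searched on both strands, none contains another, and a match is a string of letters and not a measured site.

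Per kilobase of exon, the scale on which different genes can be compared, *Zfp42* stood first in the untreated wild-type line at 95.4 ± 5.60 CPM per kb (SD, n = 3). *Klf2* followed at 31.97 ± 2.02 and *Nanog* at 31.4 ± 5.13 CPM per kb, and the libraries of these 2 genes overlapped. *Nr0b1* at 21.8 ± 2.00 and *Esrrb* at 15.1 ± 2.28 CPM per kb came next without overlap. *Tfcp2l1* at 4.01 ± 0.544 and *Tcl1* at 3.77 ± 0.673 CPM per kb overlapped each other. *Klf5* at 2.45 ± 0.0987, *Klf4* at 1.52 ± 0.243 and *Tbx3* at 0.890 ± 0.0995 CPM per kb closed the order, and their libraries did not overlap. Above 10 CPM per kb lay 5 of the 10 naive genes.

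The order differed in the other groups. In the untreated mutant line *Nanog* stood first at 31.4 ± 1.15 CPM per kb and *Zfp42* second at 24.5 ± 1.88 CPM per kb, with no overlap between them. *Nanog* was also ahead of *Zfp42* in the treated mutant line, at 29.9 against 24.2 CPM per kb. In the treated wild-type line *Zfp42* reached 119 CPM per kb, while *Nanog*, at 22.4, fell clear of *Klf2* at 31.2 CPM per kb. *Tcl1* passed *Tfcp2l1* there, at 5.83 against 4.07 CPM per kb without overlap. *Tbx3* was last in all 4 groups, although its libraries overlapped those of *Klf4* in the untreated mutant line (0.427 against 0.547 CPM per kb). With the length of the longest transcript in place of all exons, *Esrrb* moved to position 3 in 3 groups, all but the untreated wild-type line. Other places changed on that scale too. *Tbx3* passed *Klf4* in the untreated mutant line (0.567 against 0.551 CPM per kb) and so was not last there. *Tfcp2l1* was passed by *Tcl1* in the untreated wild-type line (4.97 against 4.08) and by *Klf5* in the treated wild-type line (5.76 against 4.14), among other changes.

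**Figure D1:**
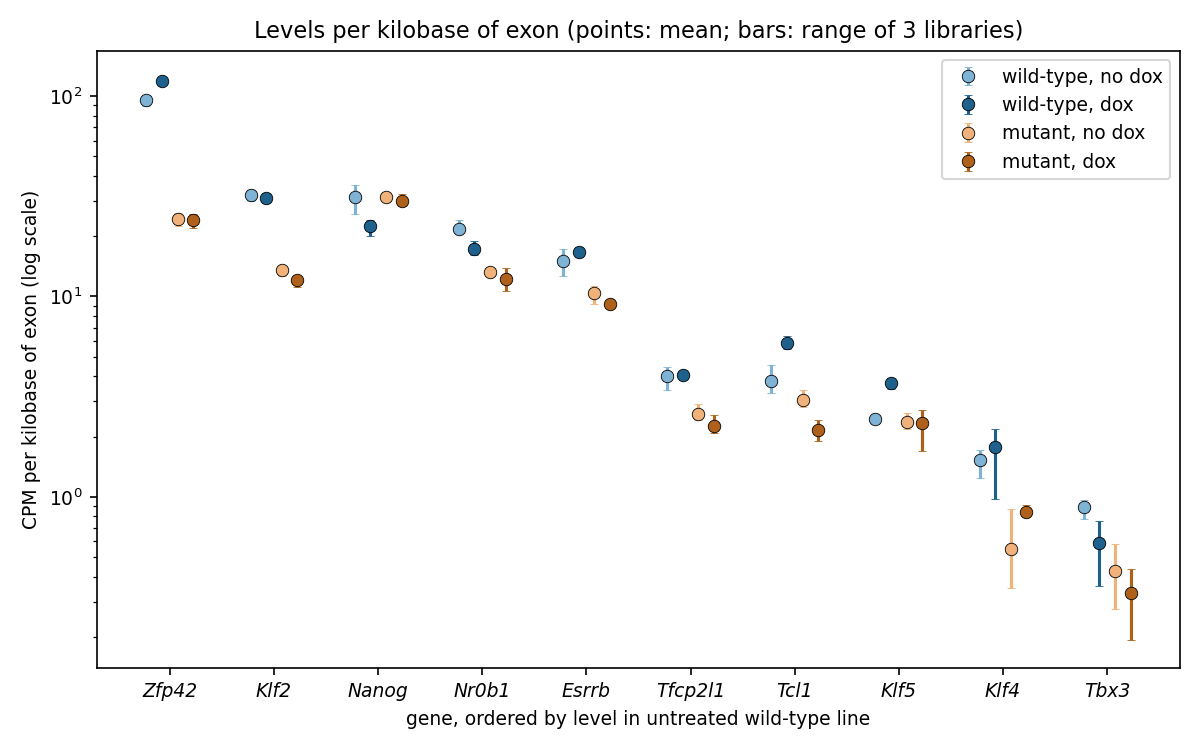
Mean level per kilobase of exon (log axis, CPM per kb) of each naive gene in the 4 groups, with bars from the lowest to the highest of 3 libraries. Zfp42 falls from 95.4 in the untreated wild-type line to 24.5 in the untreated mutant line, where Nanog stays at 31.4, and Tbx3 is lowest throughout.

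The response of the wild-type line to doxycycline compares embryoid bodies with and without induced FLAG-LHX1. *Zfp42*, *Klf5* and *Tcl1* rose and *Nanog* and *Nr0b1* fell, each by less than 1.6-fold, while 5 naive genes did not pass the test. The naive genes called, at an adjusted p under 0.05 in edgeR's quasi-likelihood test with Benjamini-Hochberg adjustment over all genes, were thus 5 of 10, against 5.32% of all genes tested. Calls up were 3 of 10, against 2.76% of all genes, and calls down 2 of 10, against 2.56%. The median log2 fold change was 0.09 over the 10 and -0.00 over all genes tested, and the median size of the change without its sign was 0.33 against 0.10. These are bulk samples, in which fewer cells of a type and less RNA per cell cannot be told apart.

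*Zfp42* encodes REX1, a zinc finger protein widely used as a reporter of the naive state, and lies at chr8:43295063-43306980. Its level was 187, 184 and 167 CPM in the untreated wild-type libraries and 229, 215 and 227 CPM with doxycycline. The treated libraries all lay above the untreated ones. The rise was 1.25-fold, a log2 fold change of 0.32 (SE 0.06, 95% interval 0.21 to 0.43, edgeR adjusted p = 3.78e-05).

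*Nanog*, a homeodomain factor that lets stem cells self-renew with little LIF, lies at chr6:122707489-122714633. It had 80.4, 73.0 and 57.8 CPM in the untreated wild-type libraries and 51.9, 45.1 and 53.7 CPM with doxycycline. The treated libraries all lay below the untreated ones, the nearest being untreated library 3. The fall was 1.40-fold, a log2 fold change of -0.48 (SE 0.09, 95% interval -0.67 to -0.30, edgeR adjusted p = 0.000335). The calls of *Zfp42* and *Nanog* held in all 14 alternatives run, with adjusted p up to 0.00119 and 0.00706.

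The ratio of *Zfp42* to *Nanog* per kilobase, computed within each library, put the 2 movements together. It was 3.08 ± 0.345 in the untreated and 5.33 ± 0.321 in the treated wild-type line (SD, n = 3), with library ranges of 2.77 to 3.45 and 5.04 to 5.68. In the mutant line it was 0.779 ± 0.0455 without and 0.812 ± 0.0848 with doxycycline, and these ranges overlapped.

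The Krüppel-like factors *Klf2*, *Klf4* and *Klf5* bind similar GC-rich sites and can stand in for one another in stem cells. Among them *Klf5*, at chr14:99298691-99315036, rose from 12.8, 12.2 and 13.2 CPM to 19.9, 19.95 and 18.05 CPM, with no overlap. Its rise was 1.51-fold (log2 0.59, SE 0.15, edgeR adjusted p = 0.00788), and it was lost with DESeq2 (adjusted p = 0.0825, with the 14 alternatives between 0.00472 and 0.0825). *Klf2*, at chr8:72319033-72321656, had 62.6, 59.5 and 55.1 CPM without and 57.6, 54.2 and 60.9 CPM with doxycycline. Its log2 fold change of -0.03 had a 95% interval of -0.20 to 0.13, and the groups overlapped. *Klf4*, at chr4:55527143-55532466 and known as a direct target of STAT3, held only 61 and 71 counts over the untreated and the treated group. Its libraries read 3.81, 5.20 and 4.93 CPM and then 2.97, 6.65 and 6.52 CPM. The 95% interval of its log2 fold change ran from -0.35 to 0.76, so a rise of the size seen in *Klf5* was not excluded.

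Summed per kilobase, the 3 KLF genes stood at 35.9 ± 1.80 CPM per kb without and 36.6 ± 1.71 CPM per kb with doxycycline in the wild-type line. *Klf2* made up 88.9% of that sum without and 85.0% with doxycycline. *Klf5* made up 6.84% and 10.2%. These shares depend on the length used. With the longest transcript *Klf5* stood at 3.81 and 5.76 CPM per kb, against 2.45 and 3.71 with all exons, while *Klf2* was unchanged, so the share of *Klf5* would be larger. In the mutant line the sum was 16.5 ± 1.25 and 15.2 ± 0.861 CPM per kb, with *Klf2* at 82.4% and 79.2%.

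*Esrrb* and *Nr0b1* encode nuclear receptors. *Esrrb*, an orphan receptor and a target of *Nanog* in stem cells, lies at chr12:86361117-86521628. It had 104, 93.4 and 76.7 CPM without and 107, 96.9 and 100.4 CPM with doxycycline in the wild-type line. The lowest value was again that of untreated library 3, the groups overlapped, and the log2 fold change of 0.15 did not pass the test (95% interval -0.01 to 0.31, edgeR adjusted p = 0.354). *Nr0b1*, which encodes DAX1, a receptor-like protein without the usual DNA-binding domain, lies at chrX:86191764-86195947, 33.2 Mb from the transgene's locus *Hprt*. It fell 1.26-fold, from 37.1, 43.6 and 37.7 CPM to 34.3, 29.2 and 30.4 CPM, with no overlap. The call was near the threshold (log2 -0.33, SE 0.10, edgeR adjusted p = 0.0435) and was lost in 9 of 14 alternatives, with adjusted p between 0.0284 and 0.292. Among these were the fits without untreated library 2 (adjusted p = 0.292), treated library 2 (0.185) and treated library 3 (0.163).

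*Tfcp2l1*, a grainyhead-family factor that acts below STAT3, lies at chr1:118627945-118685168. It had 41.9, 39.6 and 32.1 CPM without and 37.5, 39.0 and 38.7 CPM with doxycycline in the wild-type line, a log2 fold change of 0.02 (95% interval -0.18 to 0.23). *Tbx3*, a T-box factor, lies at chr5:119670669-119684724 and shares its locus with the antisense gene *Tbx3os1*, whose reads cannot be told apart from its own since the strand setting of the counting is not given. Its libraries read 6.42, 6.10 and 5.16 CPM and then 4.34, 2.38 and 5.001 CPM. These did not overlap, which held for 6 of the 10 naive genes, *Tbx3* included, and for 18.9% of all genes tested. With 77 and 52 counts per group the log2 fold change of -0.58 did not pass (95% interval -1.14 to -0.01, edgeR adjusted p = 0.296).

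*Tcl1*, the AKT co-activator, lies at chr12:105216750-105222793 and is switched off with the naive state. It rose 1.55-fold in the wild-type line, from 6.42, 8.37 and 6.05 CPM to 10.1, 10.5 and 11.7 CPM, without overlap. The groups held 91 and 142 counts (log2 0.63, SE 0.19, edgeR adjusted p = 0.0407). The call was lost in 9 of 14 alternatives, which gave adjusted p between 0.0276 and 0.308 and log2 fold changes between 0.54 and 0.79. It was lost without untreated library 1 (adjusted p = 0.141) or 3 (0.174) and without treated library 1 (0.0568), 2 (0.0745) or 3 (0.184).

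**Figure D2:**
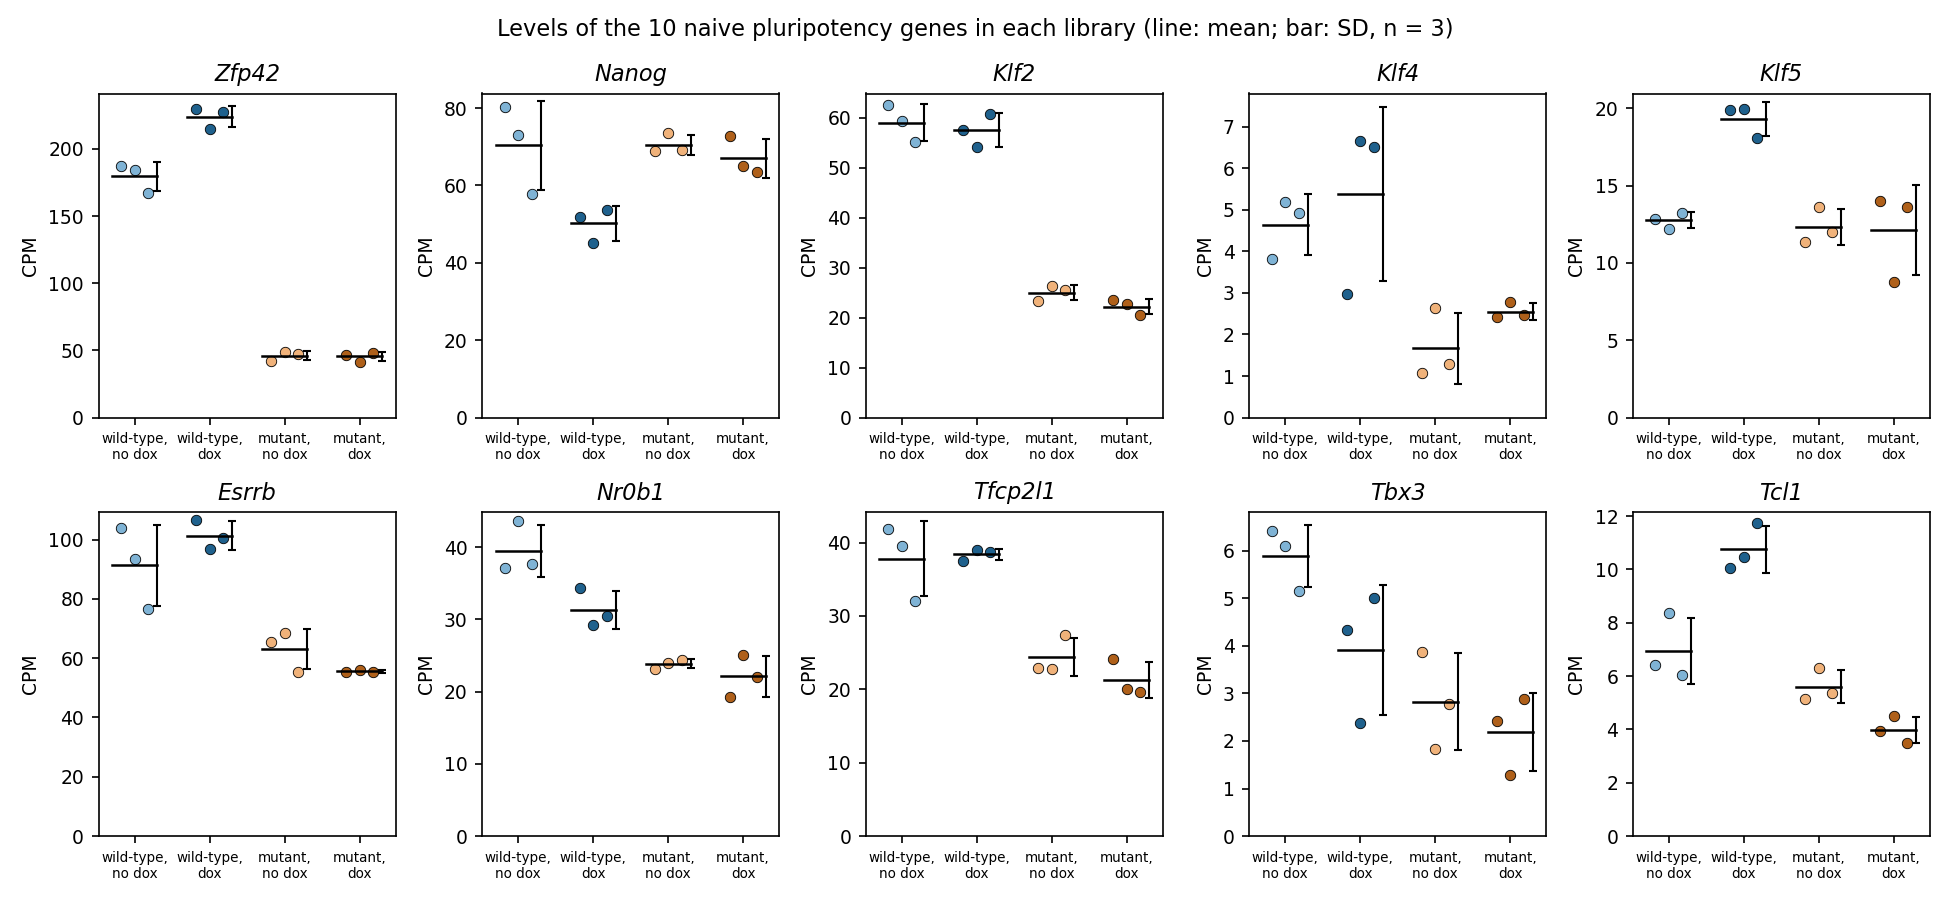
Level in CPM of each naive gene in each of the 12 libraries, in 4 groups of 3 (points), with the group mean (line) and SD (bar) and axes that start at 0. Zfp42 separates the lines most clearly (41.4 to 48.8 CPM in the mutant line, 167 or more in the wild-type line), while Nanog is low only in the treated wild-type libraries.

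Doxycycline in the mutant line asks whether induction of the mutant form, and exposure to doxycycline itself, moved the same genes. None of the 10 naive genes was called, against 0.0162% of all genes tested, which is 2 genes. These were *Lhx1* itself (log2 9.11) and *Hprt* (log2 1.43), the locus that holds the transgene. At an unadjusted p under 0.05 edgeR gave 2 naive genes, *Esrrb* and *Tcl1*, and 578 genes in all, and DESeq2 and limma-voom called 0 naive genes too. *Zfp42* had 42.1, 48.8 and 47.3 CPM without and 46.7, 41.4 and 48.4 CPM with doxycycline (log2 -0.02, 95% interval -0.18 to 0.15). *Nanog* had 68.9, 73.5 and 69.1 CPM and then 72.8, 64.9 and 63.5 CPM (log2 -0.07, 95% interval -0.25 to 0.10). For both, the interval excludes the log2 fold change measured in the wild-type line. That value has an error of its own, and the direct test of the difference, given below, called neither gene in the main fit.

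*Klf5* had 11.4, 13.6 and 11.98 CPM without and 14.0, 8.76 and 13.6 CPM with doxycycline in the mutant line (log2 -0.03, 95% interval -0.35 to 0.30). Treated library 2 was the lowest of the 6 and the groups overlapped. *Tcl1* had 5.15, 6.31 and 5.35 CPM and then 3.95, 4.49 and 3.50 CPM. It was the only naive gene whose mutant groups did not overlap, against 10.6% of all genes tested, and its log2 fold change of -0.50 had a 95% interval of -0.99 to -0.00. *Esrrb* stood at 63.1 ± 6.82 and 55.5 ± 0.378 CPM, a log2 fold change of -0.18 with overlapping groups. The remaining 5 genes had intervals that include 0, the widest being that of *Klf4*, with 24 and 36 counts per group, from -0.21 to 1.39. The log2 fold change was below 0 for 9 of the 10, with a median of -0.14 beside -0.00 over all genes tested.

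Whether a response differs between the lines was tested directly as the difference of the 2 log2 fold changes. *Tcl1* was the only naive gene called, 1 of 10 against 2.49% of all genes tested (1.40% with a higher and 1.09% with a lower response in the wild-type line). Its response was higher in the wild-type line by 1.12 on the log2 scale (SE 0.31, 95% interval 0.50 to 1.75, edgeR adjusted p = 0.0329), the sum of a rise in one line and lower values in the other. This call was lost in 8 of 19 alternatives, with adjusted p between 0.0209 and 0.257 and differences between 1.03 and 1.28. Among them were DESeq2 (0.257) and the fits without untreated mutant library 2 (0.128), treated mutant library 1 (0.0712) or 3 (0.106), untreated wild-type library 1 (0.0704) or 3 (0.0808), and treated wild-type library 3 (0.0919).

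*Zfp42* missed the threshold at a difference of 0.34 (SE 0.10, edgeR adjusted p = 0.0534), and 5 of 19 alternatives called it, with adjusted p between 0.0292 and 0.271. *Nanog* missed it at -0.41 (SE 0.13, edgeR adjusted p = 0.0775), and 3 of 19 alternatives called it, with adjusted p between 0.00218 and 0.321. The lowest of these came without untreated wild-type library 3, the library with high *Bnip3*, where the difference was -0.53. *Klf5* (0.62, adjusted p = 0.152) and *Esrrb* (0.34, adjusted p = 0.159) were the other naive genes with an unadjusted p under 0.05 in edgeR's test. *Esrrb* was called without untreated wild-type library 1 (0.0199) and without untreated mutant library 3 (0.0319), the lowest of its 19 alternatives, which ran up to 0.532. For *Klf2*, *Klf4*, *Nr0b1*, *Tfcp2l1* and *Tbx3* the adjusted p lay between 0.61 and 0.917. Of the genes called in the wild-type line alone, only *Tcl1* thus passed the test of the difference at this threshold. *Zfp42*, *Nanog*, *Klf5* and *Nr0b1* did not. This split depended on the fit: without both libraries that stand apart, edgeR called *Nanog* (adjusted p = 0.00980) and not *Tcl1* (0.0946).

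**Figure D3:**
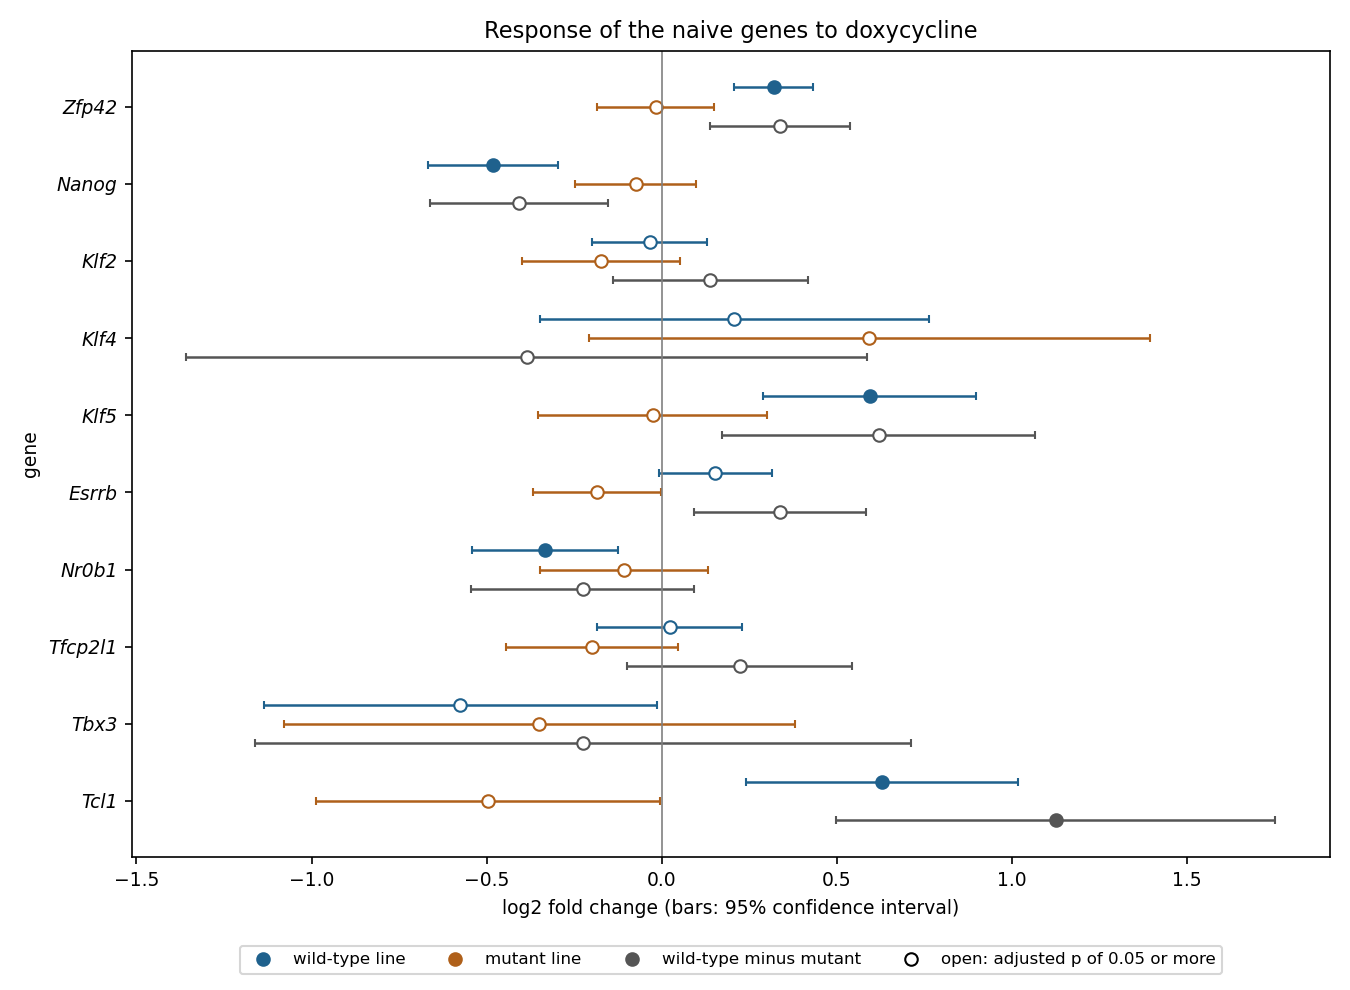
Log2 fold change with doxycycline over none in each line, and the difference of the 2 responses, for each naive gene (points, with 95% confidence intervals as bars; filled points have an adjusted p under 0.05). In the wild-type line 5 genes are filled, in the mutant line none, and Tcl1 is the only filled difference, at 1.12.

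The lines were also compared with each other, without doxycycline first. Of the naive genes 7 of 10 were called, all higher in the wild-type line, against 45.5% of all genes called, 22.6% higher and 23.0% lower. The median log2 fold change, wild-type over mutant, was 0.68 over the 10 and -0.00 over all genes tested. The median size was 0.68 against 0.26. All 7 calls held in each alternative run. *Lhx1* itself also differed between the lines. It was higher in the wild-type line without doxycycline (log2 2.22, edgeR adjusted p = 0.000268) and with it (log2 0.25, adjusted p = 6.93e-05). The part of this in the differences of the naive genes was not tested.

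*Zfp42* differed most, at 179 ± 10.5 CPM in the wild-type against 46.1 ± 3.54 CPM in the mutant line (SD, n = 3), 3.89-fold (log2 1.96, SE 0.07, edgeR adjusted p = 3.26e-31). Among genes tested it stood at percentile 90.9 of CPM in the wild-type and 63.3 in the mutant line. *Klf2* was 2.35-fold higher, at 59.1 ± 3.72 against 25.04 ± 1.47 CPM, where the mutant libraries read 23.4, 26.3 and 25.5 CPM (log2 1.23, SE 0.09, adjusted p = 1.58e-16). *Klf4* was 2.74-fold higher, with mutant libraries at 1.07, 2.65 and 1.28 CPM (log2 1.45, SE 0.35, adjusted p = 0.000592). *Tbx3* was 2.08-fold higher, with mutant libraries at 3.86, 1.83 and 2.78 CPM (log2 1.06, SE 0.30, adjusted p = 0.00268). The groups of none of these 4 overlapped, as held for 51.8% of all genes tested.

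*Nr0b1* stood at 39.5 ± 3.62 against 23.9 ± 0.613 CPM (log2 0.73, SE 0.11, edgeR adjusted p = 1.32e-07). *Tfcp2l1* stood at 37.8 ± 5.13 against 24.4 ± 2.60 CPM (log2 0.63, adjusted p = 4.21e-06) and *Esrrb* at 91.3 ± 13.8 against 63.1 ± 6.82 CPM (log2 0.53, adjusted p = 2.81e-06). *Nanog* did not pass, at 70.4 ± 11.5 against 70.5 ± 2.59 CPM, and the interval of its log2 fold change of -0.01 was -0.18 to 0.17. *Klf5*, at 12.8 ± 0.513 against 12.3 ± 1.17 CPM (interval -0.28 to 0.38), and *Tcl1*, at 6.95 ± 1.24 against 5.60 ± 0.620 CPM (interval -0.13 to 0.75), did not pass either. In the wild-type response, which shares the untreated wild-type libraries with this comparison, these 3 genes had log2 fold changes of -0.48, 0.59 and 0.63.

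With doxycycline all 10 were called, 9 higher and 1 lower in the wild-type line, against 44.4% of all genes called, 22.4% higher and 21.9% lower. *Nanog* was the lower one, at 50.2 ± 4.52 against 67.1 ± 5.01 CPM (log2 -0.41, SE 0.09, edgeR adjusted p = 0.000294). *Zfp42* was 4.92-fold higher, at 224 ± 7.81 against 45.5 ± 3.63 CPM (log2 2.30, SE 0.07, adjusted p = 3.99e-35). *Tcl1* was 2.70-fold higher, at 10.7 ± 0.881 against 3.98 ± 0.493 CPM (log2 1.43, SE 0.22, adjusted p = 1.70e-07), and *Klf5* stood at 19.3 ± 1.08 against 12.1 ± 2.93 CPM (log2 0.67, SE 0.15, adjusted p = 0.000238). *Klf2* had a log2 fold change of 1.37, *Klf4* of 1.07, *Esrrb* of 0.87, *Tfcp2l1* of 0.85 and *Nr0b1* of 0.50.

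*Tbx3* had the weakest call of these (log2 0.83, SE 0.34, edgeR adjusted p = 0.0428), with 2.41, 1.28 and 2.88 CPM in the mutant libraries and overlapping groups. It was lost in 6 of 14 alternatives, with adjusted p between 0.00902 and 0.226. These were DESeq2 (0.121), limma-voom (0.0663) and the fits without treated mutant library 1 (0.0647) or 2 (0.223) and treated wild-type library 1 (0.117) or 3 (0.226). The other 9 genes did not overlap between the treated lines, against 51.7% of all genes tested.

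**Figure D4:**
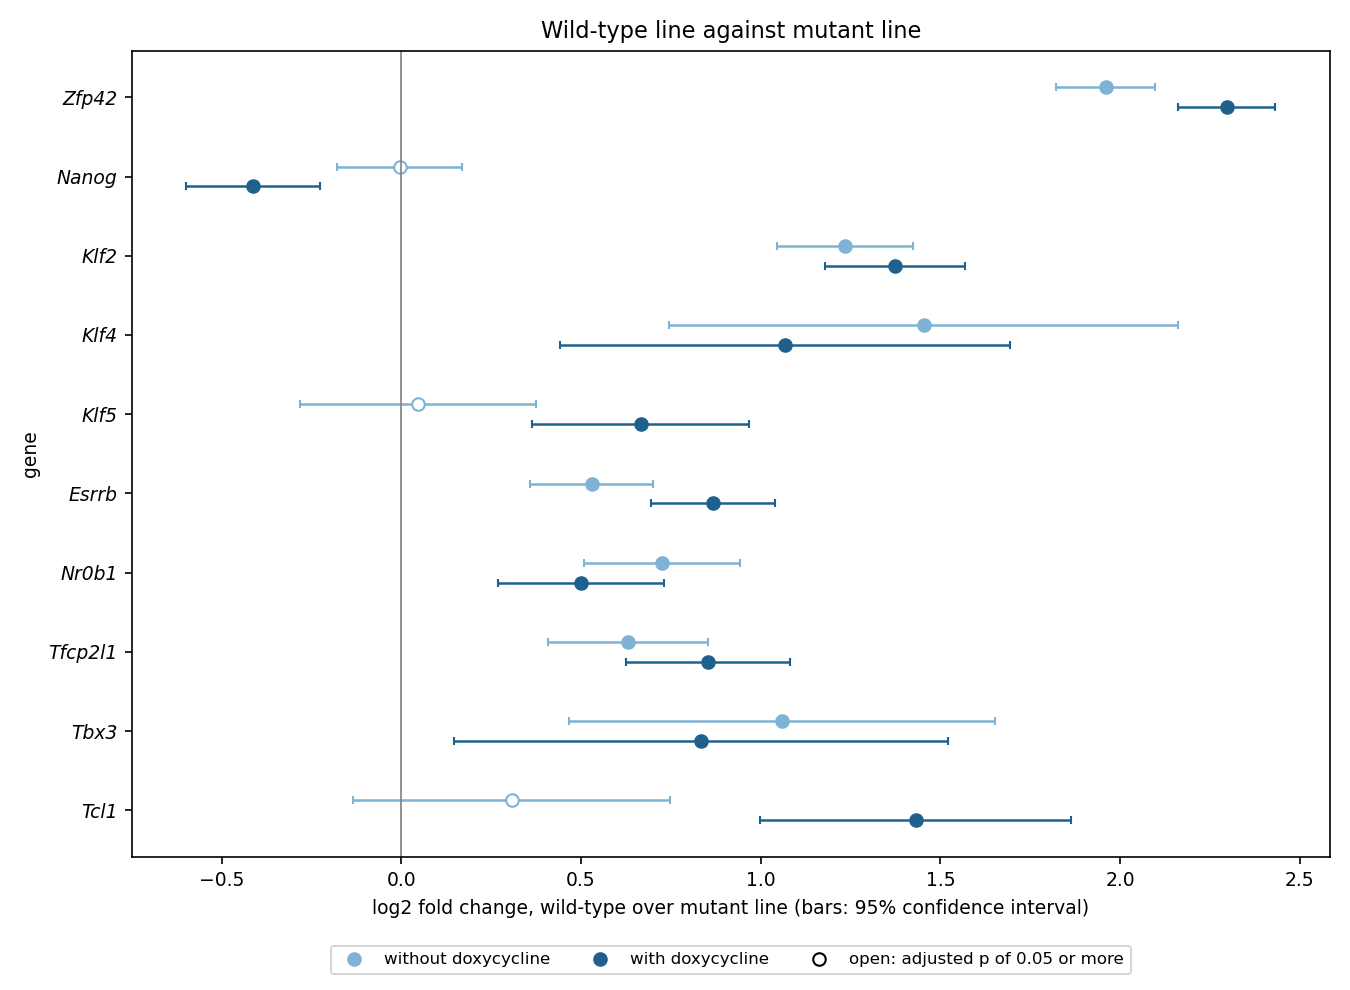
Log2 fold change of the wild-type over the mutant line for each naive gene, without and with doxycycline (points, with 95% confidence intervals as bars; filled points have an adjusted p under 0.05). Zfp42 is farthest right, at 1.96 and 2.30, and Nanog alone is left of 0 with doxycycline, at -0.41.

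Pairs of naive genes were compared over the 12 libraries. Pearson's r of log2 CPM was above 0 for all 36 pairs without *Nanog*, from 0.20 to 0.98 with a median of 0.72, and highest for *Zfp42* with *Klf2*. Of the 9 pairs with *Nanog*, 8 had r below 0, and the range was -0.69 for *Klf5* to 0.05 for *Tbx3*. These values describe 12 libraries that share 2 lines and 2 treatments. Once each library was set against its group mean, r was below 0 for 13 of the 36 pairs without *Nanog*, from -0.60 for *Klf5* with *Nr0b1* to 0.63 for *Zfp42* with *Klf5*. It was below 0 for 2 of the 9 pairs with *Nanog*, from -0.14 for *Klf4* to 0.82 for *Klf2*. So neither the shared sign of the pairs without *Nanog* nor the opposite sign of those with it held within groups.

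The genes whose log2 CPM ran most like each naive gene, among 8656 with at least 10 CPM on average, were listed by the highest r over the 12 libraries. *Zfp42* ran with *Gab1* and *Odc1* (both r = 0.996), where *Gab1*, an adaptor of receptor tyrosine kinases, had 297 and 326 CPM in the wild-type and 141 and 144 CPM in the mutant line, without and with doxycycline. *Nanog* ran with *Fads2*, a fatty acid desaturase (r = 0.976), and *Degs1*, a desaturase of sphingolipid synthesis (r = 0.924), and *Fads2* had 111 and 93.7 CPM in the wild-type and 113 and 107 CPM in the mutant line. *Klf2* ran with the Y-linked helicase gene *Ddx3y* (r = 0.994) and with *Ppid* (r = 0.993). *Esrrb* ran with *Mcm4* (0.979) and *G3bp1* (0.977), *Tfcp2l1* with *Pabpc1* (0.990) and *Gatad2a* (0.981), and *Nr0b1* with *Fth1* and *Fpgs* (both 0.975). *Tcl1* ran with *Sec14l1* (0.961) and *Tle4* (0.952), *Klf5* with *Ier5* (0.911) and *Proser1* (0.899), *Klf4* with *Dhx35* (0.912), and *Tbx3* with *Slc22a5* (0.905) and *Ppif* (0.883). *Ddx3y* had 146 and 153 CPM in the wild-type line and 0.489 and 0.290 CPM in the mutant line, so a gene that does little but separate the lines reached an r of this size.

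Other genes of the naive network and of its exit were taken from lists. Their counts stand beside the shares of all genes called, which were 5.32% in the wild-type response, 45.5% between the untreated lines and 44.4% between the treated lines. Of 7 genes of the LIF and STAT3 input, only *Pim1*, a kinase gene induced by STAT3, was called in the wild-type response, where it fell by 0.55 on the log2 scale (edgeR adjusted p = 0.00936). That call was lost in 4 of 14 alternatives, with adjusted p between 0.00525 and 0.0745. Untreated wild-type library 1 and treated libraries 1 and 3 each ended it when left out (0.0556, 0.0645 and 0.0547). *Stat3* was higher in the untreated wild-type than in the untreated mutant line, at 35.4 ± 2.72 against 28.0 ± 3.79 CPM (log2 0.34, adjusted p = 0.0169). This call was lost without untreated wild-type library 3 (0.0897) and without untreated mutant library 2 (0.0612) or 3 (0.0969). DESeq2 (0.0627) and the fit without both libraries that stand apart (0.0764) lost it too.

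The core factors moved apart in the wild-type response. *Sall4* rose from 156 ± 13.5 to 247 ± 20.3 CPM (log2 0.66, edgeR adjusted p = 4.84e-13). *Pou5f1*, which encodes OCT4, fell from 1194 ± 27.6 to 1033 ± 43.7 CPM (log2 -0.21, adjusted p = 0.000531). *Sox2* stood at 295 ± 10.7 and 267 ± 7.62 CPM and did not pass (log2 -0.15, adjusted p = 0.0501). With doxycycline *Sall4* was higher and *Pou5f1* lower in the wild-type than in the mutant line (log2 0.36 and -0.42), while without it *Sall4* and *Pou5f1* were lower and *Sox2* higher (log2 -0.35, -0.15 and 0.16).

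Among 9 other factors of the naive network, 2 rose (*Ncoa3*, a co-activator that works with ESRRB, log2 0.36, and *Gbx2*, log2 0.95) and 2 fell (*Tfe3*, log2 -0.33, and *Nr5a2*, log2 -0.72) in the wild-type response. The call of *Nr5a2* was lost in 5 of 14 alternatives, with adjusted p from 0.000219 to 0.118. It did not survive leaving out untreated wild-type library 1 (0.118) or 2 (0.0582) or treated library 1 (0.0682) or 2 (0.0760). Between the untreated lines 6 of the 9 were higher and 2 lower in the wild-type line, with a median log2 fold change of 0.62. *Mybl2* (log2 0.73), *Ncoa3* (0.62) and *Zfp57* (0.90) had the smallest adjusted p. With doxycycline 5 were higher and 1 lower, with a median of 0.82.

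Of 15 naive markers that are not transcription factors, 1 rose and 4 fell in the wild-type response. *Spp1* rose by a log2 of 0.48, and *Fgf4* and *Dppa5a* fell by 0.39 and 0.21. Between the untreated lines 11 were higher and 2 lower in the wild-type line, with a median of 0.61, and *Dppa3*, a maternal factor that also marks naive cells, was 17.8 ± 1.45 against 3.71 ± 1.00 CPM (log2 2.25, edgeR adjusted p = 3.57e-14). With doxycycline 10 were higher and 1 lower, and *Morc1* (log2 1.55), *Dppa4* (0.74) and *Fbxo15* (1.01) had the smallest adjusted p.

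Of 15 exit factors and repressors of the naive network, 1 rose and 3 fell in the wild-type response. *Rbpj*, the DNA-binding effector of Notch, rose from 201 ± 8.17 to 308 ± 19.6 CPM (log2 0.62, edgeR adjusted p = 2.34e-14), and *Foxd3* fell from 51.4 ± 5.85 to 29.2 ± 2.18 CPM (log2 -0.82, adjusted p = 1.32e-08). *Jarid2* fell by 0.18 on the log2 scale (adjusted p = 0.0123). This call did not hold with DESeq2 (0.0891), nor without untreated library 1 (0.146) or treated library 1 (0.0859) or 3 (0.0710). Between the untreated lines 5 were higher and 4 lower in the wild-type line, 9 of 15 beside 45.5% of all genes, with a median of -0.07.

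Of 17 formative and primed markers, 2 rose and 6 fell in the wild-type response. *Fgf5* rose from 86.4 ± 4.91 to 159 ± 7.89 CPM (log2 0.88, edgeR adjusted p = 4.45e-17), while *Pou3f1* fell from 209.6 ± 14.0 to 105 ± 0.469 CPM (log2 -0.99, adjusted p = 5.72e-17) and *Dnmt3a* fell by a log2 of 0.58. Between the untreated lines 3 were higher and 9 lower in the wild-type line, with a median of -0.42, among them *Sall2* (log2 -1.36), *Fgf5* (-1.001) and *Otx2* (-0.59). With doxycycline 1 was higher and 10 lower, with a median of -0.48. No gene of these 6 lists was called in the mutant response, where edgeR called 2 genes in all.

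**Figure D5:**
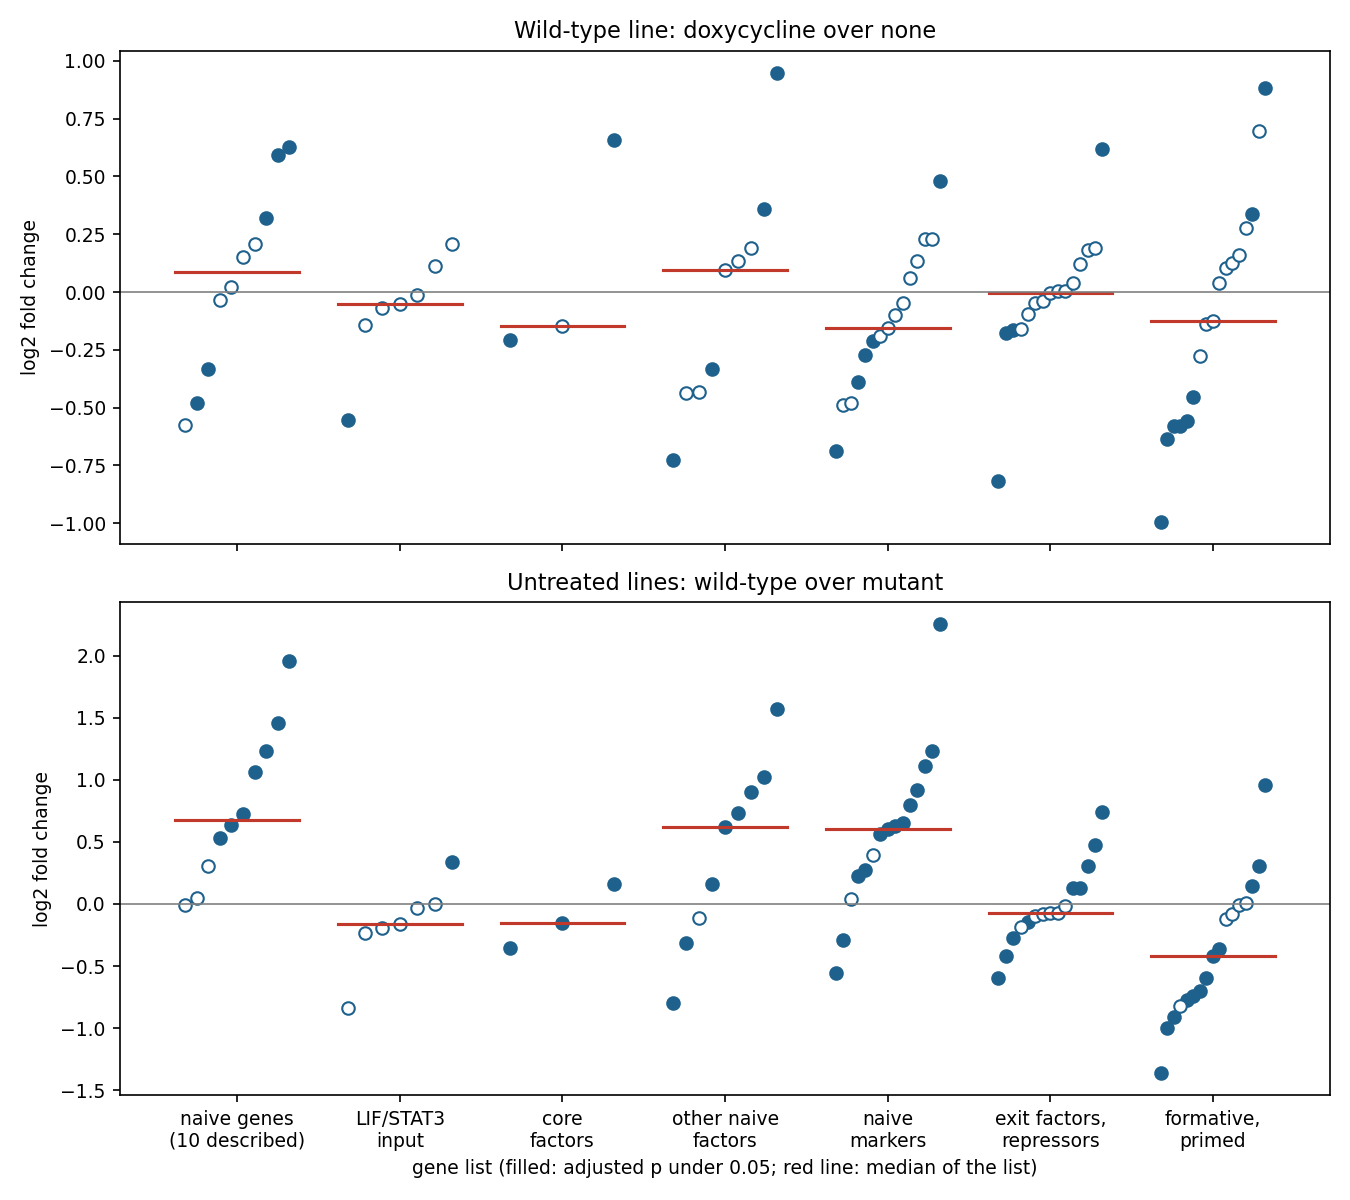
Log2 fold change of each gene of the naive list and of 6 related lists in the wild-type response (top) and between the untreated lines, wild-type over mutant (bottom). Points are genes, filled where the adjusted p was under 0.05, and red lines are list medians, which in the lower panel are 0.68 for the 10 naive genes and -0.42 for the formative and primed markers.

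Markers of other cell types were summed beside the naive genes, which together held 456 to 555 CPM per library in the wild-type and 247 to 288 CPM in the mutant line. The 10 primitive endoderm markers summed to 119 to 132 CPM in the untreated and 143 to 163 CPM in the treated wild-type line, and to 184 to 193 and 192 to 202 CPM in the mutant line. Of these 10 markers 5 were tested, with a median log2 fold change of -0.55 in the wild-type response. There *Sparc*, most of the sum, and *Lama1* rose. The other 3 did not pass and had lower values with doxycycline: *Dab2* 12.6 and 8.68 CPM, *Cubn* 3.91 and 2.29 CPM, and *Gata4* 1.15 and 0.607 CPM. The lineage factors *Gata6* (1, 6, 11 and 8 counts in the untreated and treated wild-type and the untreated and treated mutant group) and *Sox17* (4, 4, 6 and 10 counts) were near 0. The 8 trophoblast markers, mainly *Krt8*, summed to 61.9 to 79.3 and 73.6 to 81.1 CPM in the wild-type and to 87.5 to 98.5 and 104 to 105 CPM in the mutant line, with *Elf5* at 0 in 3 groups and at 1 count in the treated mutant group. The 8 germ cell markers summed to 102 to 103 and 99.3 to 112 CPM in the wild-type and to 141 to 150 and 145 to 157 CPM in the mutant line. The higher sums of the mutant line were those of *Sycp3*, at 80.8 CPM against 24.6 CPM without doxycycline. *Dnd1* was higher in the untreated wild-type line, at 14.7 against 6.66 CPM, and the median log2 fold change of the 7 germ cell markers tested was 0.18, wild-type over mutant. The 8 fibroblast markers summed to between 17.5 and 30.9 CPM in all groups, with *Postn* at 0 in both mutant groups and *Lum* at 0 in the treated wild-type and untreated mutant groups. Of the 4 fibroblast markers tested, 1 was called higher in the untreated wild-type line, beside 22.6% of all genes. Their median log2 fold change was 0.51, wild-type over mutant. The 7 two-cell-like markers in the table stayed between 8.07 and 20.5 CPM, with *Zfp352* at 0 in the treated wild-type group. The part of these marker sums in the differences of the naive genes was not tested.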

How the data were processed

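The authors deposited a table of raw counts of reads per gene symbol for 12 libraries. Per the submitters' processing notes, Trimmomatic 0.33, TopHat2 2.1.1, the mm10 genome and limma were used. The tool, annotation and strand setting of the counting: not given in the sources used here. Groups came from the sample titles. Of the symbols, 27 had turned into dates and are not named. The 10 naive genes and all lists were chosen with earlier results of these data known.

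Counts were fitted with edgeR 4.0.16 (R 4.3.3): TMM scaling, filterByExpr (minimum count 10, which is 2.18 CPM, and total 15), robust quasi-likelihood, all 12 libraries with 1 mean per group. The 12322 genes tested held 99.8% of counts. The threshold was an adjusted p (Benjamini-Hochberg) under 0.05 in each of 5 comparisons. The SE is the size of the log2 fold change over the square root of F. DESeq2 1.42.0 and limma-voom (limma 3.58.1) were among the alternatives. The test was checked on simulated counts. No 2 replicates agreed within sampling noise in a chi-square test (lowest 1.11 per degree of freedom). Levels per kb use exons of the GENCODE M21 annotation (mm10), matched by symbol.

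Genes named were the 10 naive genes, *Lhx1*, and *Bnip3* and *Rn45s*, which an earlier look had singled out. Added were up to 3 called genes with the smallest adjusted p per list and comparison, and the 2 genes with the highest r for each naive gene, leaving out predicted genes and small RNAs. Lists with at most 5 genes tested were to be named in full. This was done for the core factors and the tested primitive endoderm markers, but not for the trophoblast, two-cell-like and fibroblast markers. A gene chosen this way for its r is not reported here. *Gbx2* in the wild-type response, the cell type markers and *Hprt* were named beyond that by list or as checks, and *Gbx2* after its values were seen.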

Additional observations from a re-analysis of the deposited data

Results flagged for a closer look

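The response to doxycycline differed between the lines, by edgeR's quasi-likelihood test of the difference itself, for 1 naive gene and 18 genes of the related lists. Over all genes tested 2.49% were called, 1.40% with a higher and 1.09% with a lower response in the wild-type line. The 6 related lists had 7, 3, 9, 15, 15 and 17 genes tested, in the order given above, and *Otx2* was both an exit factor and a formative marker. The naive gene and 13 of the 18, chosen as the up to 3 with the smallest adjusted p per list, are given here. *Tcl1* had a wild-type minus mutant difference of 1.12 on the log2 scale (adjusted p = 0.0329), a call that many of the alternatives did not keep. Of the core factors, *Sall4* differed by 0.72 (4.03e-09) and *Pou5f1* by -0.26 (0.00473). Of the other naive factors, *Gbx2* differed by 1.62 (0.0127), *Ncoa3* by 0.39 (0.00648) and *Tfe3* by -0.28 (0.0448). Over the 3 libraries of a group, *Gbx2* held only 40 and 78 counts in the wild-type and 76 and 47 counts in the mutant line, without and with doxycycline. Its call was lost without untreated wild-type library 3 (1.30, adjusted p = 0.0697) and without treated mutant library 3 (1.44, 0.0585). DESeq2 (1.63, 0.121) and the fit without both libraries that stand apart (1.23, 0.125) also lost the call of *Gbx2*. That of *Ncoa3* was lost without untreated mutant library 1 (0.34, 0.0501), with DESeq2 (0.39, 0.0669) and without both libraries that stand apart (0.30, 0.0720). The call of *Tfe3* was lost in 14 of 19 alternatives, among them 11 of the 12 that leave out a library, with adjusted p between 0.00403 and 0.252.

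Of the naive markers, *Spp1* differed by 0.57 (0.00147), *Dppa5a* by -0.24 (0.0103) and *Fgf4* by -0.36 (0.0145). The call of *Dppa5a* was lost without untreated mutant library 1 (0.0683). That of *Fgf4* was lost with DESeq2 (0.112), without untreated mutant library 1 (0.0589) or 2 (0.0993) and without treated mutant library 1 (0.0648) or 2 (0.0824). Of the exit factors, *Rbpj* differed by 0.71 (2.07e-10) and *Foxd3* by -0.90 (2.06e-06). Of the formative markers 8 of 17 were called, against 2.49% of all genes tested. A higher response in the wild-type line was called for 2 (1.40% of all) and a lower one for 6 (1.09% of all). The 3 with the smallest adjusted p were these: *Fgf5* differed by 0.91 (2.77e-12), *Pou3f1* by -1.02 (3.00e-12) and *Dnmt3a* by -0.61 (5.97e-11).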

How the results depend on the processing

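The 5 naive genes called in the wild-type response became 2 with DESeq2, 3 with only the 6 libraries compared, 3 without both libraries that stand apart, and 3 to 4 when 1 library was left out. The 1 called difference of responses became 0 with DESeq2, 3 with no filter on low counts and 0 to 2 when 1 library was left out. Without both libraries that stand apart it was 1 again, but *Nanog* (lower) in place of *Tcl1*. Leaving out 1 library gave 7 calls each time between the untreated lines, 9 to 10 between the treated lines and 0 in the mutant response. Over all genes, DESeq2 called 380 in place of 655 in the wild-type response and 150 in place of 307 differences. A fit with the replicate number as a block gave 4 naive genes in the wild-type response and 1 difference. The numbers showed no visible pairing: same-numbered libraries correlated at -0.0712 to 0.0794 in their deviations from group means, and 3 of 12 correlated best with their own number. The labels do not say what the numbers stand for, so whether they mark paired cultures cannot be told.

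Values of naive genes that did not pass the test changed sign in 18 cases. In 14 of these 1 library was left out. Over the fits that leave out 1 library, *Klf2* ran from -0.083 to 0.0073 and *Tfcp2l1* from -0.085 to 0.10 in the wild-type response. In the mutant response *Klf5* ran from -0.14 to 0.16 and *Zfp42* from -0.079 to 0.045. Between the untreated lines *Klf5* ran from -0.0081 to 0.13 and *Nanog* from -0.11 to 0.12, the highest without wild-type library 3. The difference for *Tbx3* ran from -0.51 to 0.027. *Nanog* between the untreated lines was 0.0012 with DESeq2, 0.0011 with upper-quartile scaling and 0.13 without both libraries that stand apart, and *Tfcp2l1* in the wild-type response was -0.10 without both. The cause was not tested for any of these. At these depths *Klf4*, *Tbx3* and *Tcl1*, with 24 to 142 counts per group, had wide intervals. Responses as small as that of *Zfp42* to doxycycline in the wild-type line (log2 0.32) could therefore be missed in them.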

Other observations

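The Y-linked *Ddx3y* was the gene with the highest r of log2 CPM with *Klf2* over the 12 libraries, and the Y-linked genes were looked at after that value was seen. *Ddx3y* averaged 146 and 153 CPM in the untreated and treated wild-type line, and held 7 and 4 counts over the untreated and treated mutant group. *Eif2s3y* averaged 210.3 and 209 CPM in the wild-type and 1.26 and 1.56 CPM in the mutant line. *Uty* averaged 66.0 and 62.6 CPM against 0.282 and 0.420 CPM. *Kdm5d* held 53 and 56 counts over the wild-type groups and 0 in both mutant groups. These genes have X-linked relatives with which reads can be shared.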
